A study of Canis lupus familiaris with 8 samples.

Results

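The cytosolic ribosomal protein genes were compared between hearts of dogs with hyperhomocysteinemia (HHcy) and hearts of control dogs. Members were the genes whose single symbol in the array annotation is RPL or RPS followed by a number, together with RPLP1, RPLP2, RPSA and FAU. The S6 kinase genes RPS6KA2 and RPS6KB1, the pseudogene RPL18P and the binding protein gene RPS19BP1 share the start of the symbol and were left out. RPLP0 was not analysed here. In all, 66 genes with 184 probe sets were found, of 6540 genes with a single symbol on an array of 23913 probe sets. Of the 66 genes, 35 encode large subunit proteins, 26 small subunit proteins, 2 the stalk proteins RPLP1 and RPLP2, and 3 are paralogs of ribosomal protein genes (RPL26L1, RPL36AL and RPS27L). Each gene was represented by its brightest probe set by mean signal over all 8 arrays.

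HHcy is a raised blood level of homocysteine, an amino acid that cells make from methionine. The 4 HHcy dogs, numbered 5 to 8, drank water with added methionine for 2 weeks, and the 4 control dogs, numbered 1 to 4, are labelled as controls with no treatment given. All dogs were male and weighed 23 to 27 kg, and total RNA of cardiac tissue from each dog was read on 1 Affymetrix canine array. The labels name neither the chamber of the heart nor the age, breed or any batch. The study asked how chronic HHcy alters gene expression across the genome in the heart.

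A ribosome joins a small subunit, which reads the messenger RNA, to a large subunit, which forms the peptide bonds. Each subunit is a body of ribosomal RNA clad in many different proteins, most of which are needed in equal numbers. Their messenger RNAs are short, abundant in nearly every cell, and begin with a pyrimidine-rich stretch through which the kinase TOR adjusts how strongly they are translated. In the heart, growth of the muscle cells is accompanied by the making of new ribosomes.

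The values are MAS5 signals, which are array brightness on a linear scale, and 14301 probe sets passed the filter on dim ones. Of all probe sets tested, 14 passed limma with Benjamini-Hochberg adjustment at 0.05, which is 0.0979%. Some arrays stood apart from the others. The ratio of the 3' to the 5' actin probe set, a measure of how complete the copied RNA was, stood at 15.3, 599.6, 2.67 and 1.69 on HHcy 5 to 8, and at 1.93, 0.378, 2.49 and 1.44 on control 1 to 4. For the glycolytic enzyme GAPDH the same ratio was 17.2, 10.5, 5.14 and 3.56 on HHcy 5 to 8, and 3.76, 1.46, 3.25 and 3.13 on control 1 to 4. HHcy 5 and HHcy 6 were thus high and control 2 was low by both measures. The 10 measured cardiomyocyte markers had a median of -4.77 on HHcy 6, on the log2 scale relative to the control mean, against -0.16 to 0.07 for the remaining HHcy dogs and between -0.25 and 0.37 on the control arrays. Their summed signal was 15508.5 on HHcy 6, 197225.7 to 225514.5 for HHcy 5, HHcy 7 and HHcy 8, and 184982.0 to 283584.7 for the control dogs. The 12 macrophage markers summed to 14537.5 to 27960.2 on HHcy arrays and to 7564.0 to 10991.4 on control arrays. The 5 fibroblast markers summed to 19097.4 to 51894.2 on HHcy arrays and to 12934.3 to 19269.2 on control arrays. The 3 endothelial markers summed to 21840.1 to 31869.7 on HHcy arrays and to 19923.4 to 28237.9 on control arrays. No listed erythroid marker had a probe set with it as the only symbol. The part of these differences in the ribosomal protein values was not tested, and in bulk tissue fewer cells of a type cannot be told apart from less RNA per cell.

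Of the 66 ribosomal protein genes, 65 were bright enough to be tested. None passed the adjusted threshold, and the lowest adjusted p was 0.141, for FAU. At an unadjusted p under 0.05, 10 of the 65 were higher in HHcy, against 11.9% of all tested probe sets. At the same threshold 3 were lower, against 5.94% of all tested probe sets. As shares of the members these are 15.4% and 4.62%. The 10 higher genes were RPL11, RPL12, RPL3, RPL26L1, RPS20, RPL18, RPL10A, RPL6, RPS4X and RPL4, and the 3 lower ones were FAU, RPLP2 and RPL35. The split of 10 higher and 3 lower became 8 and 3 with quantile scaling, and 1 and 8 when each array was scaled to its median.

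Most of the family showed small positive values. The log2 fold change, HHcy minus control, was above 0 for 46 of the 65 genes (70.8%), against 59.98% of all tested probe sets. Its median was 0.28 over the members and 0.15 over all tested probe sets, but with median scaling it was -0.09 over the members and -0.18 over all tested probe sets. With quantile scaling the medians were 0.21 and 0.01. Relative to all tested probe sets the median of the family therefore lay 0.13 higher as deposited, 0.20 higher with quantile scaling and 0.10 higher with median scaling. The difference was -0.05 with the mean of all probe sets of a gene, and -0.07 on _at probe sets alone. Between the control arrays this difference had an SD of 0.162. That is a spread of single arrays, so it does not measure the error of the 0.13, which was not tested. As deposited and on the brightest probe sets, half-widths of the 95% intervals ran from 0.45 to 1.41 with a median of 0.52. That median is a 1.43-fold change. For 45 of the 65 genes the whole interval then lay within a 2-fold change either way. This count does not cover other scalings or a gene's other probe sets, such as those of RPS15 at -1.72 to -1.45.

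**Figure D1:**
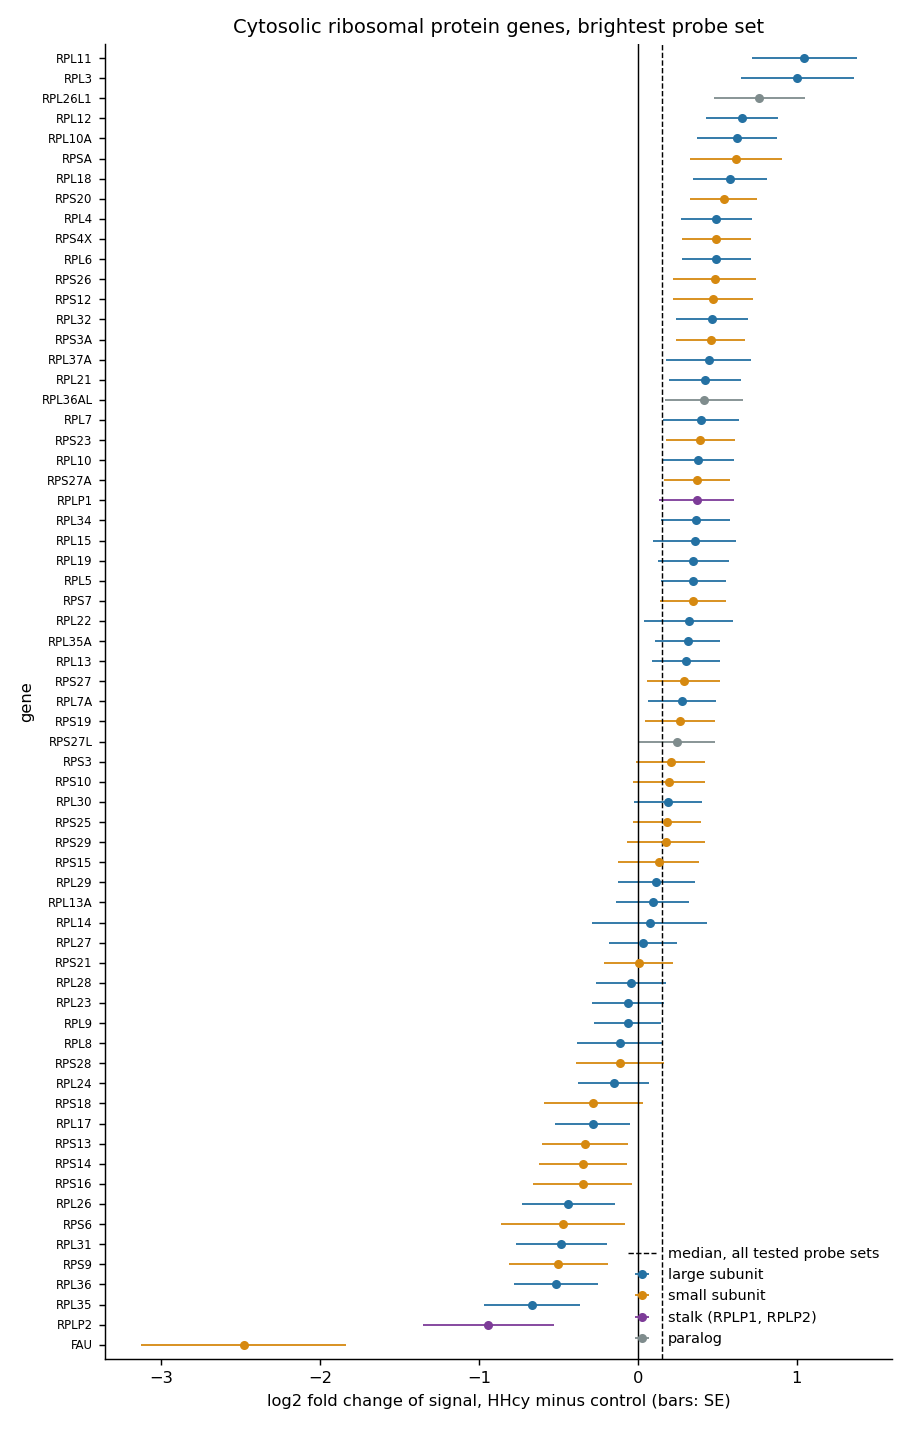
Log2 fold change of the MAS5 signal, HHcy minus control, for the 65 tested ribosomal protein genes, each on its brightest probe set; bars are standard errors and the dashed line is the median of all 14301 tested probe sets (0.15). The points run from -2.48 for FAU to 1.05 for RPL11, and 46 of 65 lie above 0 as deposited, against 24 of 65 when each array is scaled to its median.

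As deposited, the family and the whole array stood above their control means on all 4 HHcy arrays. Per array, the median of the 65 genes relative to their control means was 0.29, 0.26, 0.19 and 0.27 on HHcy 5 to 8, and 0.28, -0.11, -0.03 and -0.11 on control 1 to 4. Over all tested probe sets the same median was 0.21, 0.38, 0.05 and 0.12 on HHcy 5 to 8, and 0.07, 0.06, -0.02 and -0.03 on control 1 to 4. The family was thus above the whole array on HHcy 5, HHcy 7, HHcy 8 and control 1. It was below the whole array on HHcy 6, control 2 and control 4, and nearly equal to it on control 3. The family's values on control 1 overlapped those of the HHcy dogs. The members made up 5.07%, 5.38%, 4.95% and 5.07% of the summed signal of HHcy 5 to 8, and 4.96%, 3.97%, 4.43% and 4.18% of that of control 1 to 4. Here too control 1 lay among the HHcy arrays, and control 2, with the lowest actin ratio, had the smallest share. The lowest signal of a gene fell on control 2 for 25 of the 65 members (38.5%) and on control 4 for 17 (26.2%), against 20.3% and 13.8% of all tested probe sets. The highest signal fell on HHcy 6 for 22 members (33.8%), close to the 35.3% of all tested probe sets.

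As deposited, all HHcy arrays were above all control arrays for 10 of the 65 members (15.4%), against 7.49% of all tested probe sets. For 3 members (4.62%) all HHcy arrays were below all control arrays, against 3.89% of all tested probe sets. Over all tested genes on their brightest probe set the shares were 8.36% above and 3.53% below. Such counts were not made with other scalings. The genes without overlap that were higher in HHcy were RPL3, RPL5, RPL6, RPL11, RPL12, RPL18, RPL26L1, RPS3A, RPS4X and RPS20. Those that were lower in HHcy were RPL26, RPL31 and RPL36, all of the large subunit. The spread between dogs of a group was also measured. The median within-group SD on the log2 scale was 0.22 in HHcy dogs and 0.27 in control dogs over the members, against 0.49 in HHcy dogs and 0.44 in control dogs over all tested probe sets.

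Of the 35 large subunit genes, 25 had a log2 fold change above 0 as deposited, 7 were higher and 1 was lower at an unadjusted p under 0.05, and 0 passed the adjusted threshold. Of all tested probe sets 11.9% were higher and 5.94% lower at that threshold. The median of the large subunit genes was 0.31, against 0.15 over all tested probe sets. RPL11, which with RPL5 binds the p53 regulator MDM2 when it is free of ribosomes, had signals of 367.6, 426.3, 342.9 and 324.7 on HHcy 5 to 8, and of 286.7, 197.6, 129.4 and 92.4 on control 1 to 4. All HHcy dogs were above all control dogs, and the control dogs spread more widely. RPL11 was 2.07-fold higher in HHcy (log2 fold change 1.05 ± 0.33, SE, limma adjusted p 0.171), and its log2 fold change was 0.93 without HHcy 5 and HHcy 6. RPL11 was dim on its only probe set, with a mean signal of 271 over all arrays, against 20270.6 for RPL5 on its brightest. Whether the RPL11 probe set reads the main transcript of the gene was not tested. RPL5 had 22784.6, 26268.2, 20472.7 and 21354.5 on HHcy 5 to 8, and 20357.2, 18185.2, 16903.6 and 15839.1 on control 1 to 4. The lowest HHcy value of RPL5, on HHcy 7, was barely above control 1, and its log2 fold change of 0.35 ± 0.21 became -0.02 with median scaling (limma adjusted p 0.387 as deposited). On the 2 other RPL5 probe sets it was -0.22 and 0.24.

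RPL12, a protein at the base of the stalk, had signals of 30021.1, 35350.5, 27682.9 and 26063.0 on HHcy 5 to 8, and of 22918.4, 14830.6, 20506.6 and 17782.5 on control 1 to 4. The groups did not overlap, with HHcy 6 highest and control 2 lowest. RPL12 averaged 29779.4 ± 4053.9 in HHcy and 19009.5 ± 3487.6 in control dogs (SD, n = 4 each), 1.58-fold higher in HHcy (log2 fold change 0.66 ± 0.22, SE, limma adjusted p 0.193, and 0.29 with median scaling). RPL3, which lies near the centre where peptide bonds form, had 1277.5, 4083.0, 2072.5 and 1411.3 on HHcy 5 to 8, and 987.2, 1181.3, 1063.2 and 725.8 on control 1 to 4. One HHcy array, HHcy 6, was far above the other three, which were still above all control arrays. For RPL3 the log2 fold change was 1.004 ± 0.36 (SE, limma adjusted p 0.200), and 0.66 without HHcy 6 and 0.65 with median scaling.

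RPL18, a large subunit protein whose gene had a single probe set, read 15662.0, 22622.1, 18177.7 and 17085.4 on HHcy 5 to 8, and 14678.5, 9347.8, 13590.3 and 11804.1 on control 1 to 4. HHcy 5 was only just above control 1, and HHcy 6 was again highest and control 2 lowest. For RPL18 the log2 fold change was 0.58 ± 0.23 (SE, limma adjusted p 0.238), which was 0.22 with median scaling and 0.35 without control 2 and HHcy 6. RPL10A, a protein of the stalk on the opposite side of the large subunit, averaged 31816.8 ± 4827.9 in HHcy and 21071.8 ± 5738.7 in control dogs (SD, n = 4 each), with a log2 fold change of 0.62 ± 0.25 (0.26 with median scaling). Its groups overlapped, because control 1 lay above HHcy 8. RPL6 and RPL4, the second of which lines the tunnel through which the new protein leaves, both had a log2 fold change of 0.49, and the groups overlapped for RPL4 but not for RPL6. With median scaling the values were 0.13 for both. On the other tested probe sets they ran from -1.02 to 0.32 for RPL4 and from -0.21 to -0.005 for RPL6.

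**Figure D2:**
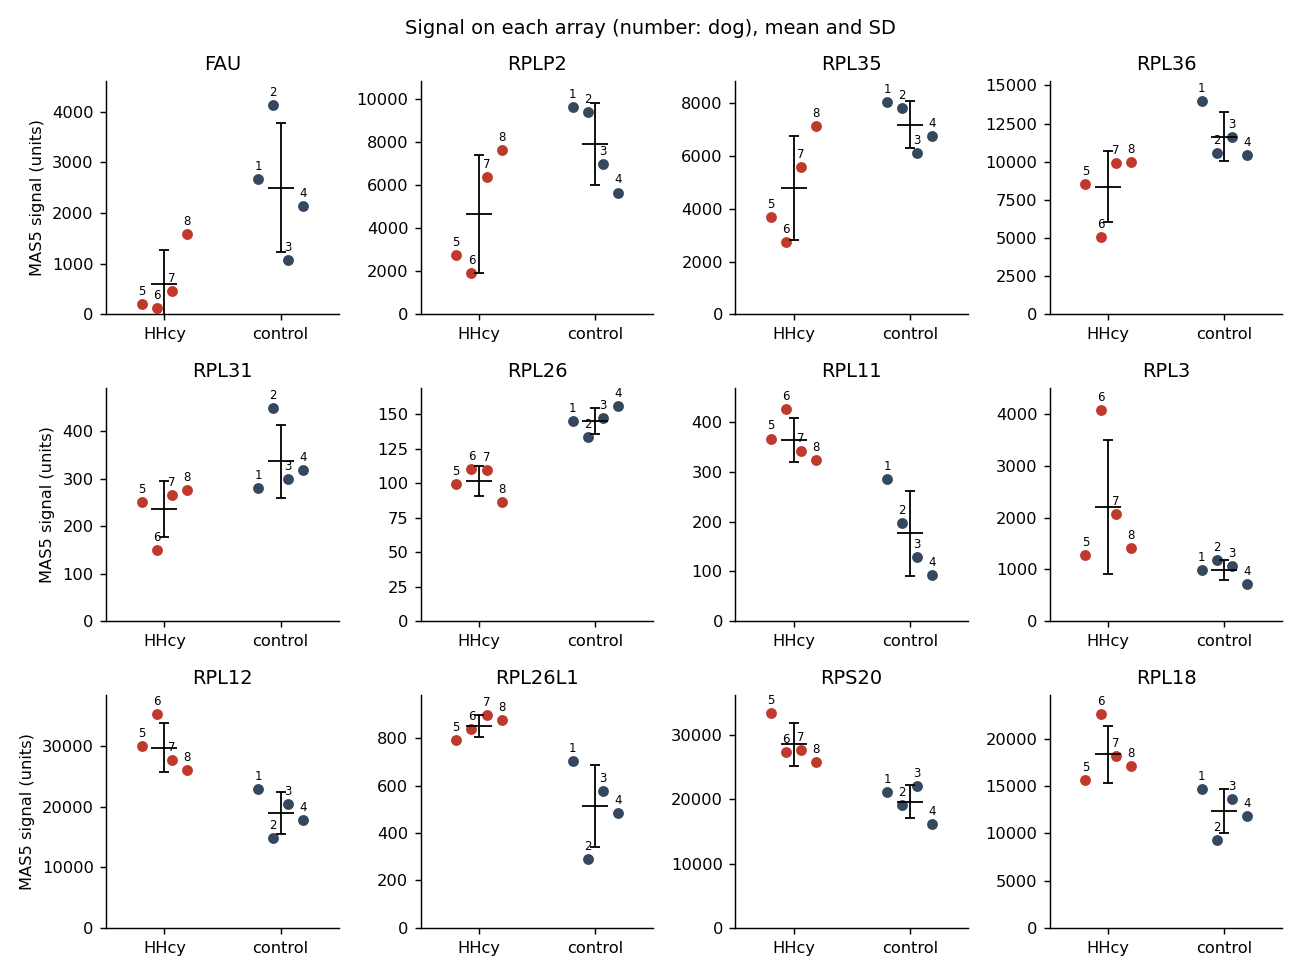
MAS5 signal of 12 ribosomal protein genes on each array, with HHcy dogs 5 to 8 in red on the left and control dogs 1 to 4 in blue on the right of each panel; bars are the mean and SD, and that of FAU in HHcy reaches below 0 and is drawn to the axis. FAU, RPLP2 and RPL35 are lowest on HHcy 6 and overlap between the groups, whereas RPL26 and RPL11 do not.

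Among the large subunit genes with lower signal in HHcy, RPL35 had the lowest p. RPL35, which lies at the exit of the peptide tunnel, had signals of 3677.6, 2757.6, 5590.9 and 7146.1 on HHcy 5 to 8, and of 8031.8, 7800.0, 6127.0 and 6770.0 on control 1 to 4. HHcy 5 and HHcy 6 were low, while HHcy 8 stood within the control range. For RPL35 the log2 fold change was -0.67 ± 0.30 (SE, limma adjusted p 0.278), and -0.18 without HHcy 5 and HHcy 6. On its 2 other tested probe sets it was -0.16 and 0.64. RPL36, another large subunit protein, had 8506.4, 5072.6, 9931.0 and 9982.4 on HHcy 5 to 8, and 13973.0, 10574.3, 11593.6 and 10453.3 on control 1 to 4. The groups did not overlap, but HHcy 7 and HHcy 8 were close to control 2 and control 4. RPL36 had a log2 fold change of -0.52 ± 0.26 (SE, limma adjusted p 0.326), and -0.22 without HHcy 5 and HHcy 6.

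RPL31 and RPL26, both placed around the tunnel exit, were dim. RPL31 had signals of 250.9, 150.6, 266.4 and 277.2 on HHcy 5 to 8, and of 280.0, 448.9, 300.3 and 317.9 on control 1 to 4. HHcy 8 and control 1 were nearly equal, HHcy 6 was the lowest array and control 2 the highest. RPL31 thus had a log2 fold change of -0.48 ± 0.28 (SE, limma adjusted p 0.388), which was -0.30 without HHcy 6 and -0.16 without control 2 and HHcy 6. RPL26 had signals of 99.5, 110.4, 109.4 and 86.7 on HHcy 5 to 8, and of 145.3, 133.3, 147.1 and 156.2 on control 1 to 4. All HHcy values were below all control values, and neither HHcy 6 nor HHcy 5 was the lowest. Its log2 fold change of -0.44 ± 0.29 (SE, limma adjusted p 0.437) was -0.48 without HHcy 5 and HHcy 6. On the other RPL26 probe set it was 0.17.

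RPLP1 and RPLP2 form the flexible acidic stalk of the large subunit, which calls in the elongation factors, and they are paired in the ribosome. Their signals went opposite ways as deposited. RPLP2 had 2768.4, 1923.4, 6360.5 and 7630.1 on HHcy 5 to 8, and 9627.0, 9382.8, 6978.9 and 5660.1 on control 1 to 4. HHcy 5 and HHcy 6 were low, while HHcy 7 and HHcy 8 lay within the control range. RPLP2 averaged 4670.6 ± 2755.6 in HHcy and 7912.2 ± 1918.9 in control dogs (SD, n = 4 each), 1.92-fold lower in HHcy (log2 fold change -0.94 ± 0.41, SE, limma adjusted p 0.266). Its log2 fold change was -0.59 without HHcy 6 and -0.15 without HHcy 5 and HHcy 6. RPLP1 had 29153.3, 26337.4, 24617.4 and 27857.6 on HHcy 5 to 8, and 28172.8, 15027.8, 22601.6 and 19697.9 on control 1 to 4. Control 1 was among the highest, so the groups overlapped, while the other 3 control arrays were below every HHcy array. For RPLP1 the log2 fold change was 0.37 ± 0.24 (SE, limma adjusted p 0.422), and it was 0.21 without control 2 and 0.01 with median scaling. On the other RPLP1 probe set it was 0.93, and RPLP2 has only 1 probe set.

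Over the 25 tested small subunit genes the median was 0.20 as deposited, with 17 above 0, 2 higher (8% of the genes) and 1 lower (4%) at an unadjusted p under 0.05, and 0 past the adjusted threshold. Over all tested probe sets the median was 0.15, with 59.98% above 0, 11.9% higher and 5.94% lower. RPS20, a protein of the head of the small subunit, had signals of 33322.0, 27376.1, 27619.8 and 25724.0 on HHcy 5 to 8, and of 21161.8, 19110.7, 21990.0 and 16207.3 on control 1 to 4. The groups were apart, with HHcy 5 highest. RPS20 was 1.46-fold higher in HHcy (log2 fold change 0.54 ± 0.21, SE, limma adjusted p 0.228), and its log2 fold change was 0.45 without HHcy 5 and HHcy 6 and 0.18 with median scaling. RPS4X, encoded on the X chromosome, had 30200.9, 31971.6, 23806.8 and 21833.5 on HHcy 5 to 8, and 21056.4, 18396.0, 17992.4 and 18288.2 on control 1 to 4. HHcy 5 and HHcy 6 were far above the control dogs and HHcy 8 just above control 1. For RPS4X it was 0.49 ± 0.22 on the log2 scale (SE, limma adjusted p 0.265), but 0.13 with median scaling, 0.27 without HHcy 5 and HHcy 6, and -0.40 and -0.28 on its 2 other probe sets.

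RPS3A, another small subunit protein, also had no overlap, with 24113.6 to 31495.9 on HHcy arrays and 17124.2 to 23937.8 on control arrays. On the log2 scale the difference was 0.46 ± 0.22 (SE, limma adjusted p 0.293), with 0.28 without HHcy 5 and HHcy 6 and 0.09 with median scaling. The 2 other RPS3A probe sets had -0.62 and 0.12. RPSA, also known as the laminin receptor, had 18839.5, 17148.4, 13964.6 and 12611.1 on HHcy 5 to 8, and 14299.2, 6518.9, 13338.7 and 8197.9 on control 1 to 4. Control 2 and control 4 were low, and the groups overlapped because control 1 and control 3 were above HHcy 8. RPSA had a log2 fold change of 0.62 ± 0.29 on the brightest probe set (SE, limma adjusted p 0.290) and -0.50 on the other one, and was 0.41 without control 2 and 0.25 with median scaling.

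RPS6, the small subunit protein that S6 kinase phosphorylates downstream of TOR, had signals of 312.1, 662.3, 431.0 and 1027.9 on HHcy 5 to 8, and of 640.3, 1298.3, 508.0 and 843.6 on control 1 to 4. The groups overlapped widely, and the log2 fold change was -0.47 ± 0.39 (SE, limma adjusted p 0.528). It was -0.21 without HHcy 5, -0.23 without control 2 and -0.76 without HHcy 8. The only RPS6 probe set had a mean signal of 715.4 over all arrays, and whether it reads the main transcript was not tested. RPS9 had 2639.1 to 4817.1 on HHcy arrays and 3922.1 to 9117.2 on control arrays, with control 2 far above the other control arrays. Its log2 fold change of -0.50 ± 0.31 (SE, limma adjusted p 0.411) was -0.25 without control 2, -0.33 without HHcy 6 and -0.07 without both. RPS14, a small subunit protein, behaved alike, with -0.34 ± 0.28 on all arrays and 0.02 without control 2 and HHcy 6. Its 4 other tested probe sets ran from -1.09 to 0.59 on all arrays, and 3 of them were negative. RPS24 was the gene too dim to be tested, with signals of 15.7, 68.2, 81.8 and 70.5 on HHcy 5 to 8, and of 10.5, 58.4, 49.2 and 59.0 on control 1 to 4.

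FAU and RPS27A encode fusions, FAU of a ubiquitin-like protein and RPS27A of ubiquitin itself, each joined to a small subunit protein that is cut free after translation. FAU had the largest log2 fold change of the tested members in either direction. Its signals were 211.4, 123.7, 463.9 and 1576.0 on HHcy 5 to 8, and 2666.0, 4134.3, 1066.5 and 2129.6 on control 1 to 4. HHcy 8 was above control 3, so the groups overlapped, and the other 3 HHcy arrays were below every control array. FAU averaged 593.8 ± 670.5 in HHcy and 2499.1 ± 1276.8 in control dogs (SD, n = 4 each), 5.58-fold lower in HHcy (log2 fold change -2.48 ± 0.65, SE, limma adjusted p 0.141). Ranked by signal, the 8 arrays stood in nearly the reverse order of the actin ratio, with control 2 highest and HHcy 6 lowest, and the part of that ratio in the difference was not tested. On the other tested FAU probe set the log2 fold change was 1.005, and on the brightest one it was -1.36 without HHcy 5 and HHcy 6. Without HHcy 8 the brightest one had -3.14 and passed the adjusted threshold in limma. RPS27A had 25070.8 to 28224.7 on HHcy arrays and 18136.3 to 25950.0 on control arrays. Control 1 again lay within the HHcy range, and the log2 fold change of RPS27A was 0.37 ± 0.21 (SE, limma adjusted p 0.365) as deposited and 0.01 with median scaling.

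The 3 paralogs all had positive values as deposited. RPL26L1, a close copy of RPL26, had signals of 793.1, 838.5, 898.0 and 875.6 on HHcy 5 to 8, and of 703.7, 291.7, 576.3 and 483.0 on control 1 to 4. The HHcy dogs were close together and above all control dogs, of which control 2 was lowest. The log2 fold change of RPL26L1 was 0.77 ± 0.28 (SE, limma adjusted p 0.213) and 0.83 without HHcy 5 and HHcy 6 (0.42 with median scaling), against -0.44 for RPL26. RPL36AL and RPS27L had log2 fold changes of 0.42 and 0.25, and their groups overlapped. Whether probes of such copies read each other's transcripts was not tested.

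Genes with several probe sets could be read more than once, and whether their probe sets read the same transcripts was not tested. For 41 members at least 2 probe sets were tested, and for 23 of the 41 these had log2 fold changes of both signs. The median range between the probe sets of a gene was 0.82. The median log2 fold change was 0.29 over the brightest probe sets of the 41 genes and -0.13 over their 103 other tested probe sets. Of these 103, 22 were lower and 9 higher in HHcy at an unadjusted p under 0.05, and 0 passed the adjusted threshold in limma, against 5.94% lower and 11.9% higher of all tested probe sets. The count was 32 lower and 2 higher with median scaling (median -0.49), and 9 lower and 10 higher with array weights (median 0.02). Without HHcy 5 and HHcy 6, the 103 had a median of 0.01, with 1 lower and 5 higher. Several of them can share a gene, so they are not independent.

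RPS16, whose tail reaches the transfer RNA in the small subunit, had dimmer probe sets that all lay below its brightest one. Its brightest probe set had 2626.3, 3162.7, 4749.1 and 5129.3 on HHcy 5 to 8, and 6669.5, 6065.9, 3171.8 and 4143.7 on control 1 to 4. These values overlapped, and the log2 fold change was -0.35 ± 0.31 (SE, limma adjusted p 0.561), which was 0.04 without HHcy 5 and HHcy 6. The 8 dimmer probe sets of RPS16 had log2 fold changes from -1.99 to -1.26. Their median relative to the control mean was -2.22, -2.94, -1.43 and 0.05 on HHcy 5 to 8, and 0.07, 1.05, -1.11 and -0.17 on control 1 to 4. From highest to lowest the arrays ran control 2, control 1, HHcy 8, control 4, control 3, HHcy 7, HHcy 5 and HHcy 6, nearly the reverse of their order by the actin ratio. The part of the RNA's completeness in these values was not tested.

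**Figure D3:**
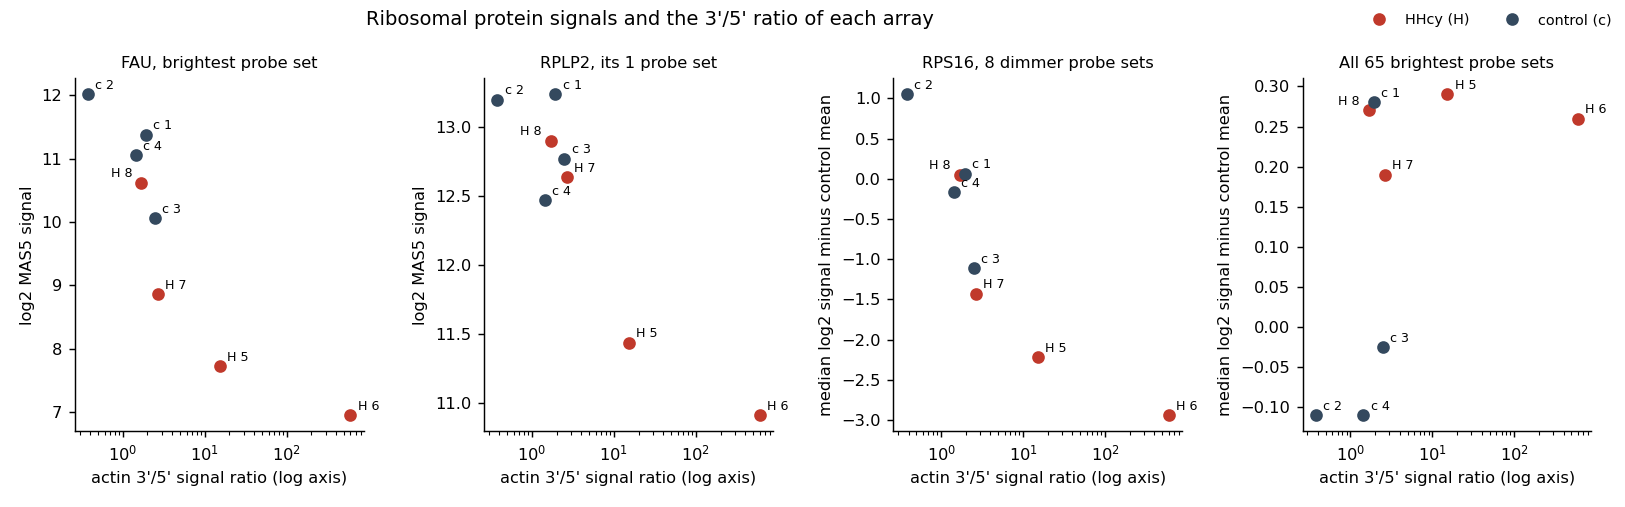
Each point is 1 array, HHcy (H) in red and control (c) in blue, placed by its 3' to 5' actin signal ratio on a log axis; the vertical axes give the log2 signal of FAU and of RPLP2, and the median log2 signal relative to the control mean of the 8 dimmer RPS16 probe sets and of all 65 brightest probe sets. FAU and the dimmer RPS16 probe sets are lowest on HHcy 6 (ratio 599.6) and highest on control 2 (ratio 0.378), whereas the median of the 65 is lowest on control 2 and control 4.

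RPS15 and RPL29 had dimmer probe sets of the same kind. RPS15, whose tail extends to the decoding site, had a log2 fold change of 0.13 ± 0.25 on its brightest probe set (-0.23 with median scaling) and of -1.72 to -1.45 on its 3 others. These 3 had medians of -2.14, -2.97, -1.11 and -0.09 on HHcy 5 to 8, and of 0.09, 0.66, -0.52 and -0.25 on control 1 to 4. RPL29, with 10 probe sets the most of any member, had 0.12 ± 0.24 on its brightest (-0.25 with median scaling) and -1.25 to 0.01 on the 6 others that were tested. Those 6 had medians of -1.48, -1.72, -0.72 and 0.13 on HHcy 5 to 8, and of 0.04, 0.56, -0.44 and -0.15 on control 1 to 4. In both genes HHcy 6 and HHcy 5 were the lowest arrays and control 2 the highest.

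RPL7A and RPL15, large subunit proteins, had probe sets with changes on both sides of 0. RPL7A read 20148.0, 18891.3, 19048.4 and 20215.2 on HHcy 5 to 8, and 21251.1, 14606.5, 14625.1 and 14898.7 on control 1 to 4. Control 1 was the highest of all arrays and the other 3 control arrays were the lowest. Its log2 fold change was 0.28 ± 0.21 (SE, limma adjusted p 0.494), -0.09 with median scaling, and -1.16 to 1.25 on 4 other probe sets. RPL15 read 6146.3, 6680.3, 8458.5 and 7601.8 on HHcy 5 to 8, and 6712.3, 3527.2, 6638.2 and 6193.7 on control 1 to 4. Control 2 was far below all other arrays, and the remaining control arrays lay within the HHcy range. The log2 fold change of RPL15 was 0.36 ± 0.26 (SE, limma adjusted p 0.472), -0.01 with median scaling, 0.14 without control 2, and -1.16 to 1.07 on 7 other probe sets. RPL17, which lines the peptide tunnel, had -0.28 ± 0.24 on its brightest probe set and -1.19 to 0.50 on 8 others.

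**Figure D4:**
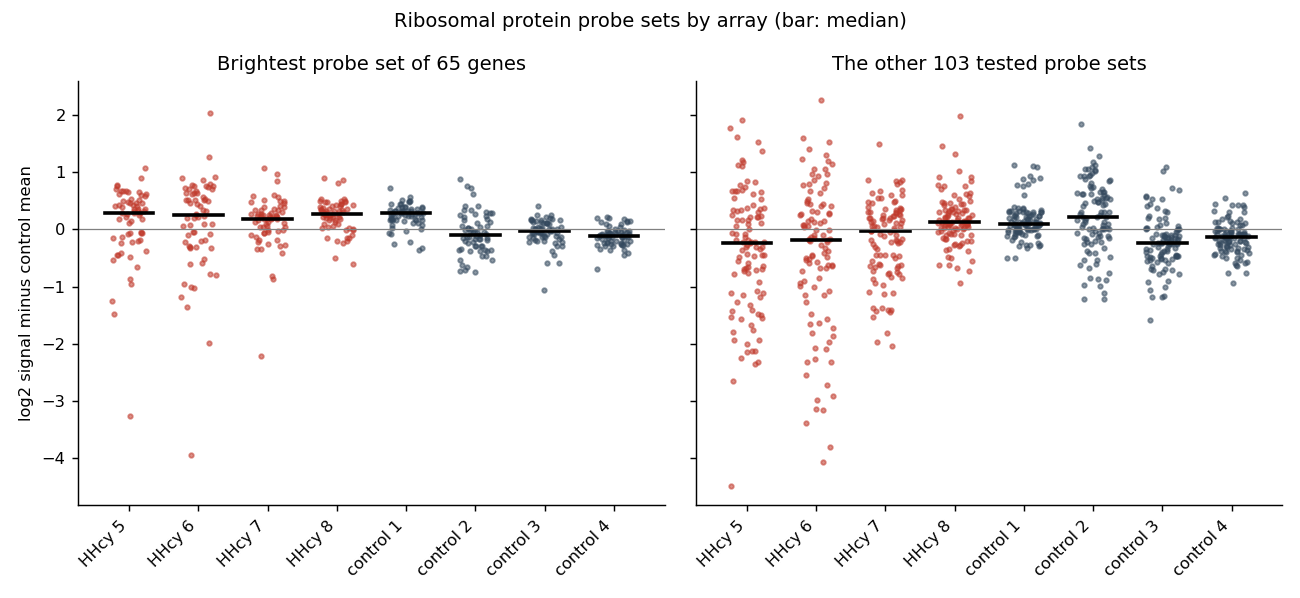
Log2 signal minus the control mean on each array, HHcy 5 to 8 in red and control 1 to 4 in blue, for the brightest probe sets of the 65 genes (left) and the 103 other tested probe sets of the same family (right); black bars are medians. The brightest probe sets have medians of 0.19 to 0.29 on HHcy arrays and of -0.11 to 0.28 on control arrays, while the others have -0.25 and -0.19 on HHcy 5 and HHcy 6 and 0.21 on control 2; with median scaling the median fold change of the brightest turns to -0.09.

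The values also differed by type of probe set. Affymetrix marks a probe set as _s_at or _x_at where its probes match several transcripts, and _at where they are meant for 1. The median log2 fold change was 0.08 for the 20 members tested on an _at probe set, 0.30 for the 33 on an _s_at probe set and 0.27 for the 12 on an _x_at probe set. Over all tested probe sets the _at type had the highest median, with 0.18 for _at, 0.04 for _s_at and -0.06 for _x_at. Another 45 probe sets carry several symbols of which at least 1 is a ribosomal protein of the same pattern. The 38 of these that were tested had a median of 0.20, with 8 higher (21.1%) and 4 lower (10.5%) at an unadjusted p under 0.05, against 11.9% and 5.94% of all tested probe sets.

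Genes that work around the ribosome were read from lists of translation factors, ribosome biogenesis factors, mitochondrial ribosomal proteins and the TOR pathway. None of their tested genes passed the adjusted threshold in limma. The 37 translation factors had a median log2 fold change of 0.13 as deposited (-0.23 with median scaling), with 4 higher (10.8%) and 2 lower (5.41%) at an unadjusted p under 0.05, against 11.9% and 5.94% of all tested probe sets. With median scaling 0 were higher and 4 lower. EIF4A2, an RNA helicase of the cap-binding complex, had signals of 4385.2, 2362.8, 5739.0 and 4585.2 on HHcy 5 to 8, and of 8167.7, 12119.3, 7699.9 and 8589.7 on control 1 to 4. All HHcy dogs were below all control dogs, with HHcy 6 lowest and control 2 highest. EIF4A2 had a log2 fold change of -1.14 ± 0.30 (SE, limma adjusted p 0.141), with -1.13 on its other probe set and -0.81 without HHcy 5 and HHcy 6. EIF3L, a subunit of the initiation factor that binds the small subunit, averaged 6854.3 ± 796.8 in HHcy and 4338.6 ± 1001.7 in control dogs (SD, n = 4 each), with a log2 fold change of 0.68 ± 0.24 (SE, limma adjusted p 0.202).

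The 32 ribosome biogenesis genes had a median of 0.21 as deposited (-0.14 with median scaling), with 2 higher (6.25%) and 1 lower (3.13%) at an unadjusted p under 0.05, against 11.9% and 5.94% of all tested probe sets. With median scaling 0 were higher and 4 lower. NOP53, a nucleolar factor of large subunit assembly, averaged 461.4 ± 168.9 in HHcy and 204.4 ± 109.8 in control dogs (SD, n = 4 each), with a log2 fold change of 1.17 ± 0.39 (SE, limma adjusted p 0.181). NOP56, a core protein of the particles that methylate ribosomal RNA, had 1.07 ± 0.40 (SE, limma adjusted p 0.214) and -0.11 on its other probe set. With median scaling NOP56 had 0.71. It read 4240.9 on HHcy 6, against 1269.3 to 2443.6 on the other HHcy arrays. The groups overlapped, because HHcy 5 lay below control 4 (1876.1). In the TOR pathway 7 genes were tested, with a median of 0.32 (-0.03 with median scaling), 2 higher and 0 lower (0 and 1 with median scaling), too few to set against the 11.9% and 5.94% of all tested probe sets. These 2 were the S6 kinase gene RPS6KB1, with 0.64 ± 0.26 on its brightest probe set and 0.05 on the other, and TSC2, which restrains TOR, with 0.68 ± 0.30. The limma adjusted p was 0.244 for RPS6KB1 and 0.268 for TSC2.

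Mitochondrial ribosomal proteins, which are encoded in the nucleus and serve the separate ribosomes of mitochondria, had a median of -0.16 over 52 tested genes, with 7 lower (13.5%) and 1 higher (1.92%) at an unadjusted p under 0.05, against 5.94% and 11.9% of all tested probe sets. HHcy 6 was the lowest array. Per array their median was 0.17, -0.82, 0.09 and 0.15 on HHcy 5 to 8, and 0.04, -0.33, 0.24 and 0.16 on control 1 to 4. Without HHcy 6 the median over the 52 genes was 0.09, with 4 lower and 2 higher, while that of the 65 cytosolic genes was 0.27. MRPL16 had 475.3, 54.9, 852.0 and 508.6 on HHcy 5 to 8, and 1189.0, 1372.4, 1253.9 and 1641.9 on control 1 to 4. All HHcy dogs were below all control dogs, and HHcy 6 was far below the rest. Its log2 fold change was -1.90 ± 0.59 (SE, limma adjusted p 0.171), and -1.16 without HHcy 6. MRPS18C went the other way, with 888.4 ± 187.1 in HHcy and 529.7 ± 163.2 in control dogs (SD, n = 4 each) and a log2 fold change of 0.74 ± 0.27 (SE, limma adjusted p 0.212). The cardiomyocyte markers were also lowest on HHcy 6, and their part in these values was not tested.

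**Figure D5:**
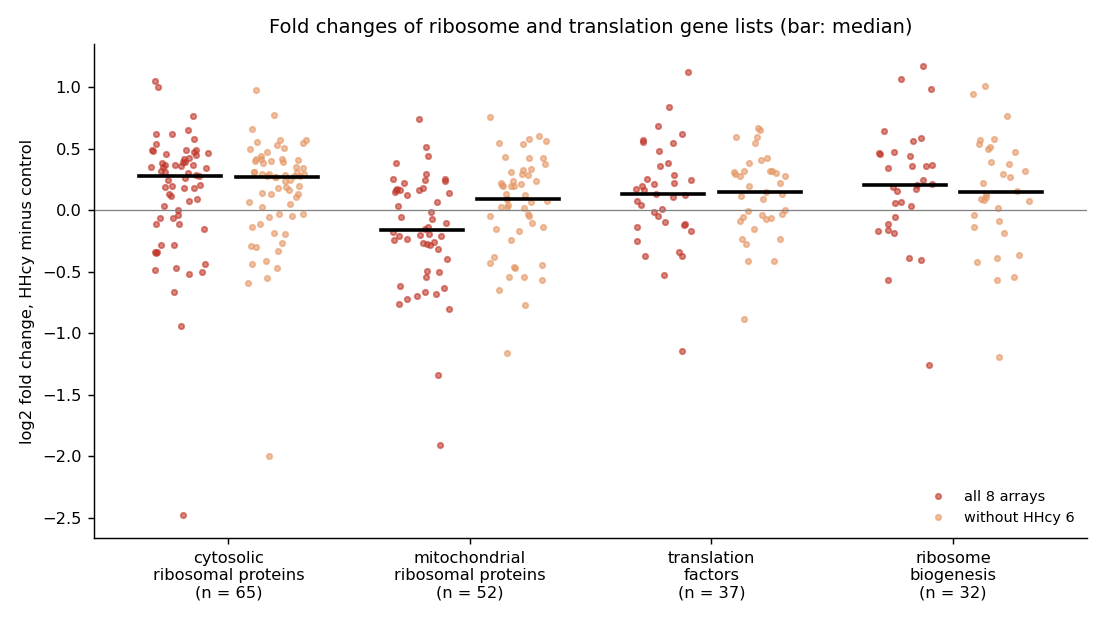
Log2 fold change, HHcy minus control, of each tested gene in 4 lists on all 8 arrays (red) and without HHcy 6 (orange); black bars are medians. The cytosolic list has a median of 0.28 on all arrays and 0.27 without HHcy 6, and the mitochondrial list -0.16 and 0.09, both as deposited; with median scaling the cytosolic median is -0.09 and the mitochondrial one -0.52.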

How the data were processed

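Total RNA of cardiac tissue from 8 male dogs, 4 HHcy and 4 control, was hybridised to Affymetrix canine arrays, 1 per dog. What the authors deposited are linear intensities per probe set, for which the submitters' processing notes name MAS5, without a version. With 2% left out at each end, every array averages 500.08 to 500.1, so the arrays were used without rescaling. Scanner files and detection calls were not used. Groups follow the sample titles, and the labels give separate dogs, whose number limits the precision.

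The 77 control probe sets and then the dimmest 40% by mean log2 value were left out. The remaining 14301 were compared as log2(value + 24), where 24 is the 20th percentile of the table, which understates folds of dim genes. Tests used limma (version 3.58.1, R version 4.3.3), with lmFit, trended eBayes and Benjamini-Hochberg adjustment over all 14301 at 0.05. Lists are described by counts and medians. The procedure was tested on simulated data.

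Of the probe sets, 10549 carry a single symbol in the platform annotation and 138 several. Members and gene lists were chosen with earlier results of these data known. The rule for named genes took members past the adjusted threshold, the 8 lower and 6 higher members of lowest p, 7 chosen genes, the 4 members whose probe sets lay furthest apart, and 2 genes per list. It named 29 genes, 21 of them members. Another 9 (RPL10A, RPL17, RPL29, RPL4, RPL5, RPL6, RPS16, RPS3A and RPS4X), and genes given only in lists, were named after their values were seen. Alternatives changed the scaling, pseudocount, filter, variance model, array weights, probe set summary and the arrays or members used.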

Additional observations from a re-analysis of the deposited data

Results flagged for a closer look

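For each named gene, for the median of the 65 ribosomal protein genes and for their share of the summed signal, each group of 4 arrays was examined for an array far from the other 3. Of 80 groups examined, 6 held one. Chance flags about 1 in 20 such groups. RPL31, at the exit of the peptide tunnel, read 150.6 on HHcy 6, below the 250.9 to 277.2 of the other HHcy arrays. NOP53, the nucleolar assembly factor, read 714.2 on HHcy 6, above the 365.3 to 389.9 of the other HHcy arrays. The mitochondrial ribosomal protein gene MRPS18C also read highest on HHcy 6, with 1168.6 against 780.5 to 803.5. On control 1, RPL7A read 21251.1, above the 14606.5 to 14898.7 of the other control arrays, and RPS4X read 21056.4, above 17992.4 to 18396.0. RPL15 read 3527.2 on control 2, below the 6193.7 to 6712.3 of the other control arrays.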

How the results depend on the processing

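Over 19 alternative fits, 721 values of the 38 named genes were recomputed: 706 kept direction and side of the adjusted threshold, 1 newly passed (FAU, -3.14 without HHcy 8) and 14 turned sign, while 28 genes had no sign change. None of the 38 genes passed that threshold in the main fit, so a value that shrank towards 0 also counts as kept. RPLP2, for example, went from -0.94 to -0.15 without HHcy 5 and HHcy 6. The number of ribosomal protein genes past the adjusted threshold was 0, and 0 to 1 with 1 array left out. The count lower at an unadjusted p under 0.05 was 3; it was 8 with median scaling, 1 with the dimmest 60% left out, without the intensity trend, with array weights, without HHcy 5 and HHcy 6, without control 2 and HHcy 6, or on _s_at and _x_at probe sets, and 1 to 3 with 1 array left out. The count higher was 10; it was 1 with median scaling, 4 with no filter, without the trend or on _at probe sets, 6 without HHcy 5 and HHcy 6 or on _s_at and _x_at probe sets, and 3 to 16 with 1 array left out. The higher count was 16 without control 1, 6 without control 2, 3 without control 4 and 5 without HHcy 5. The lower count was 1 without control 1, control 2, control 3, HHcy 5 or HHcy 6. A fit without an array also has less data, and the part of that in these counts was not tested. The median of 0.28 was -0.0863 with median scaling and 0.084 on _at probe sets. Its difference from all tested probe sets was -0.0463 with the mean of all probe sets of a gene and -0.0668 on _at probe sets. With median scaling RPL7A had -0.0863, RPL15 -0.00562, RPS15 -0.233, RPL29 -0.249 and RPL5 -0.0152. With the mean of all probe sets RPL7A had -0.092, RPS15 -1.17, RPL29 -0.449, RPL4 -0.0156, RPS3A -0.016 and RPS4X -0.0633. RPL29 ran from -0.00863 to 0.243 with 1 array left out. RPS16 had 0.0391 without HHcy 5 and HHcy 6, and RPS14 had 0.0152 without control 2 and HHcy 6. The cause of these changes was not tested. Leaving out 2 arrays and the splits by probe set type were chosen after seeing the data. No paired analysis was made because the labels give no pairing of HHcy and control dogs. Detection calls were not used, so a bound on dim genes such as RPL26 is not given.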

Other observations

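Of the symbols that resemble the family but were left out, the S6 kinase gene RPS6KB1 had the largest difference, with log2 fold changes of 0.64 and 0.05 on its 2 probe sets. The pseudogene RPL18P had a signal of 573.8 ± 126.7 in HHcy and 684.7 ± 196.6 in control dogs (SD, n = 4 each), with a log2 fold change of -0.23 ± 0.28 (SE, limma adjusted p 0.672), whereas RPL18 had 0.58. RPS19BP1, a binding protein of RPS19, had 483.5 ± 138.2 in HHcy and 534.8 ± 8.27 in control dogs (SD, n = 4 each), with a log2 fold change of -0.19 ± 0.27 (SE, limma adjusted p 0.730). RPS6KA2 was too dim to be tested on both of its probe sets.

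Some genes gave the same sign on all of their probe sets as deposited, and others did not. RPS3, a small subunit protein at the entry of the messenger RNA, had a log2 fold change of 0.21 on its brightest probe set and of 0.29 to 0.75 on its 5 others. RPS12 had 0.48 and 1.43, RPL32 had 0.47 and 0.78, and RPL10A had 0.62 on its brightest and 0.58 to 0.71 on its 2 others. RPL24 differed in sign, with -0.15 on its brightest probe set and 0.08 to 0.73 on its 2 others, and RPL28 had -0.04 and -1.28. None of these probe sets passed the adjusted threshold in limma.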
